A study of Mus musculus with 4 samples.

Results

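The 26 genes described here encode enzymes that build cholesterol, the proteins that switch those enzymes on when sterols are scarce, and a cholesterol carrier. They were taken by name from a list of pathway members, which was chosen with earlier results of these data known. They are 26 of the 47725 gene rows of the deposited table, each name standing for 1 row. Messenger RNA was sequenced from whole, pulverized mouse skin, with 4 libraries in 2 groups. The libraries labelled cKO pair, per the series title, the floxed Pp6 allele with K5. K5 was taken to mean the keratin 5 promoter, which drives expression in basal keratinocytes. The libraries labelled PP6fl/fl, called control below, carry the floxed alleles alone as far as the labels say. Pp6 is Ppp6c, the catalytic subunit of protein phosphatase 6. Both groups share the floxed alleles, the C57BL/6J background and an age of 17 weeks, and each has 2 libraries, numbered 2 and 3. K5 would act in keratinocytes, whereas the RNA came from all cells of the skin, so fewer cells of a type and less RNA per cell cannot be told apart. Whether each library stands for a different animal is not stated, so the p-values rest on a spread between libraries that may be only technical.

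Cholesterol is built from acetyl-CoA through mevalonate and the isoprenoids to squalene, which is folded into the first sterol and then trimmed, reduced and desaturated. Most enzymes of the route are targets of SREBP-2, a membrane-bound transcription factor that SCAP escorts from the endoplasmic reticulum to the Golgi when sterols run low, while INSIG proteins hold SCAP back when sterols are plentiful. In skin, keratinocytes supply cholesterol to the barrier lipids and sebaceous glands make large amounts of squalene, sterols and wax esters.

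The deposited counts summed to 15837136 and 17459413 in cKO replicates 2 and 3, and to 23407731 and 22334208 in control replicates 2 and 3. Levels below are CPM, library-size counts scaled by edgeR's TMM factors, or the authors' FPKM where genes are set against each other. Ppp6c stood at 62.1 and 50.1 CPM in cKO skin, against 57.8 and 61.8 CPM in control skin, so its whole-gene count did not check the labels, and cKO and control mean here the libraries so labelled. Skin markers were present in all libraries: 7 basal keratinocyte genes summed to 18780 and 12230 CPM in cKO skin and to 11970 and 11560 CPM in control skin. Of these 7 genes, 5 had negative and 2 positive fold changes, with a median log2 fold change of -0.24. The higher sum in cKO skin thus does not give the direction of most of them. Libraries also differed in the summed levels of markers of other cell types, which are not counts of cells. Neutrophil markers summed to 1444 and 947 CPM in cKO skin and to 22.6 and 16.7 CPM in control skin, where Ly6g was at 0 in replicate 2. The genes S100a8, S100a9, Clec4d and Mmp8 of this list passed the test upward. Most of the cKO sums came from S100a8, at 354 and 245 CPM in cKO replicates 2 and 3, and S100a9, at 858 and 509 CPM. Hair follicle markers summed to 5111 and 1566 CPM in cKO skin and to 923 and 150 CPM in control skin. Muscle markers summed to 1935 and 11510 CPM in cKO skin and to 8285 and 12870 CPM in control skin. Suprabasal keratinocyte markers summed to 18440 and 30380 CPM in cKO skin and to 12720 and 12300 CPM in control skin, with 4 positive and 3 negative fold changes. Fibroblast markers summed to 19520 and 12350 CPM in cKO skin and to 7432 and 6508 CPM in control skin.

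The 26 genes had fold changes of both signs, 16 negative and 10 positive. The genes lowest against control in cKO skin were the sensor Insig2 at 43.8% and the enzymes Msmo1 at 47.3%, Dhcr7 at 49.2% and Hsd17b7 at 50.9% of control. Ebp and Sc5d, enzymes of the same sterol ring steps, stood at 124.7% and 120.5% of control. Early kinases and the SREBP genes themselves lay near control, with Mvk at 102%, Pmvk at 99.1% and Srebf2 at 102% of control. Stard4, the carrier, was the gene furthest above control, at 144%. All 26 genes passed the filter on low counts, and each had between 102 and 11186 counts in every library.

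No member passed an adjusted p of 0.05 in edgeR's quasi-likelihood test with Benjamini-Hochberg adjustment over the 17440 genes tested: 0 were lower, where 0.35% of all tested genes were called lower, and 0 were higher, where 0.74% were called higher. At an unadjusted p under 0.05, 6 members were lower, against 9.69% of all genes, namely Hsd17b7, Dhcr7, Insig2, Lss, Mvd and Tm7sf2. In the upward direction 1 member was under that level, Stard4, against 10.3% of all genes. Both cKO libraries lay below both control libraries for 12 members, against 27.7% of all genes, and above them for 4 members, against 25.1% of all genes. The groups overlapped for the other 10. The median log2 fold change of the members was -0.14, beside -0.001 for all tested genes. Libraries were also simulated gene by gene, with each gene's fitted spread shared by both groups. There the test recovered 6.67% of genes changed 2-fold and 75.3% of genes changed 4-fold. A p that misses the threshold thus does not show that a member did not differ. The simulation did not hold the unequal spread of the real groups (chi-square per gene between libraries 93.6 in cKO, 24.2 in control), so its shares are a rough guide.

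Other tests of the same libraries called up to 3 of these genes. DESeq2 called 3 members lower, Dhcr7, Hsd17b7 and Insig2, where 4.62% of all tested genes were called lower, and edgeR's exact test called the same 3 names, where 4.74% were. In the authors' deposited table the false discovery rate was under 0.05 for the same 3 names, where 3.78% of the genes tested here were lower at that rate. The authors' deposited table gives Insig2 a log2 fold change of -1.27 with a false discovery rate of 0.0105, and Dhcr7 -1.09 with 0.0274. In the authors' deposited table Hsd17b7 stands at -1.04 with a false discovery rate of 0.0348, and Msmo1 at -1.16 with 0.0731. The quasi-likelihood count also turned on single libraries: without cKO replicate 2 it was 6 members lower (Acat2, Cyp51, Dhcr7, Hsd17b7, Insig2 and Msmo1), where 3.91% of all tested genes were called lower, and without cKO replicate 3 it was 2 (Hsd17b7 and Insig2), where 2.85% were. Both shares are above the 0.35% with all libraries. In those fits the lone cKO library is assumed to vary like the controls. None of the 13 alternatives called a member higher.

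**Figure D1:**
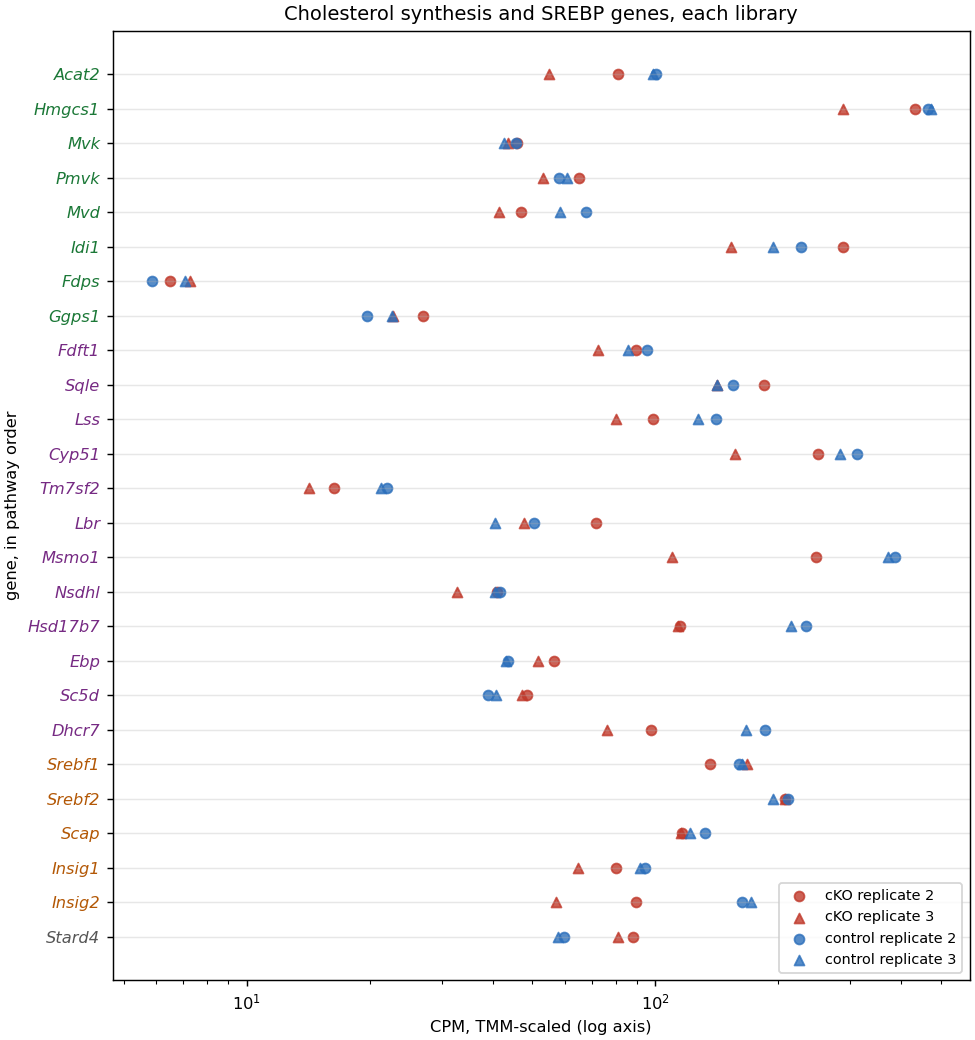
CPM (TMM-scaled, log axis) of each of the 26 genes in each library, cKO in red and control in blue, circles for replicate 2 and triangles for replicate 3, with gene names coloured by role as in the plot of fold changes. Both cKO points lie left of both control points for 12 genes, with the widest gaps at Insig2, Msmo1, Dhcr7 and Hsd17b7, and right of them for 4. The shares over all tested genes were 27.7% and 25.1%.

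**Figure D2:**
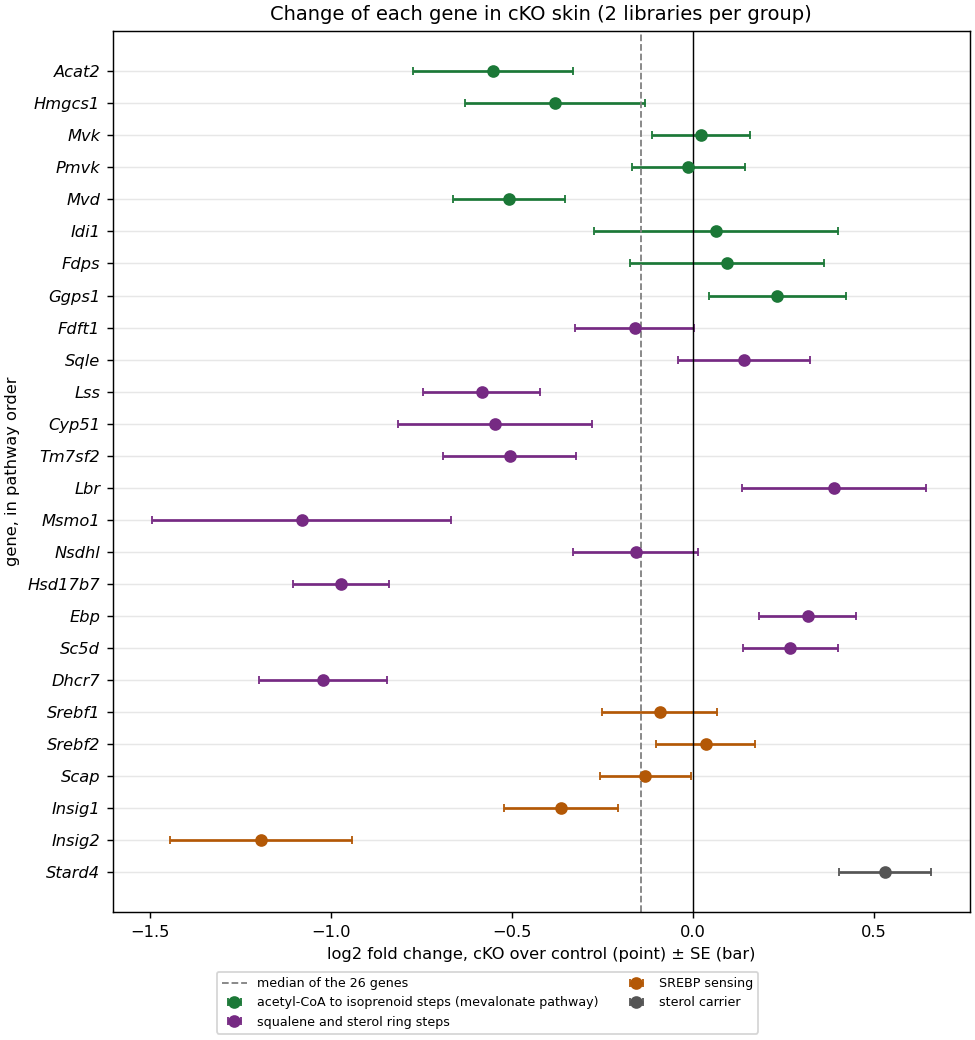
Log2 fold change of cKO over control (point) with its SE (bar) for each of the 26 genes in pathway order, coloured by role, 2 libraries per group. Values run between -1.19 for Insig2 and 0.53 for Stard4, and the dashed line marks the median of -0.14.

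The 8 enzymes between acetyl-CoA and the isoprenoids had a median log2 fold change of 0.005. Of them 3 were lower in both cKO libraries (Acat2, Hmgcs1 and Mvd), 1 was higher (Ggps1) and 4 overlapped. Over all tested genes, 27.7% were lower and 25.1% higher in both cKO libraries, so the lower count is near the level of all genes. Hmgcs1 makes HMG-CoA, the precursor of mevalonate, and had the highest FPKM of the 26 genes in both groups, at 109 ± 33.4 in cKO skin and 148 ± 0.27 in control skin (SD, n = 2 each). It stood at 432 and 288 CPM in cKO replicates 2 and 3, against 465 and 471 CPM in control replicates 2 and 3. The cKO values differed from each other far more than the control libraries did, and cKO replicate 2 came close to control. Its log2 fold change was -0.38 ± 0.25 (SE), with an edgeR adjusted p of 0.476. Its promoter window (RefSeq, GRCm38.p6, chr13:119690101-119690400, plus strand, 250 bases before to 50 after the annotated start) is shown because it is the only member window that holds a match to the searched sterol element TCACNCCAC. Capitals mark that match, 137 bases upstream of the start, and 4 matches to CCAAT, the box bound by NF-Y, all read here as ATTGG.
Hmgcs1: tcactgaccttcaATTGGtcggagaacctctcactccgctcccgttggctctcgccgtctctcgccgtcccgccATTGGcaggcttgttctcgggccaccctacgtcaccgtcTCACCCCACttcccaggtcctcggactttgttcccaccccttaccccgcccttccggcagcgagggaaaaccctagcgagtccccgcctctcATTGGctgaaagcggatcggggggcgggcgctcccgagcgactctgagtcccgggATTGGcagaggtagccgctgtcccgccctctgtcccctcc

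Acat2, which joins acetyl-CoA units in the cytosol, had 81.1 and 55.0 CPM in cKO skin, against 101 and 98.9 CPM in control skin. Mvd, the decarboxylase that ends the mevalonate steps, had 47.0 and 41.5 CPM in cKO skin, against 67.6 and 58.3 CPM in control skin. The groups did not overlap for either gene, and within cKO skin replicate 3 was the lower library for both. Their log2 fold changes were -0.55 ± 0.22 and -0.51 ± 0.16 (SE), with edgeR adjusted p of 0.271 and 0.182. Acat2 shares 97.7% identity over 1477 aligned bases with Acat3, which had 85 and 84 counts in the cKO libraries and 121 and 82 in the control libraries, so reads may have been split between them.

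The kinases Mvk and Pmvk, which phosphorylate mevalonate in turn, overlapped between the groups. Mvk had 45.8 and 43.7 CPM in cKO skin, against 45.6 and 42.5 CPM in control skin. Pmvk had 64.8 and 53.1 CPM in cKO skin, against 58.2 and 60.8 CPM in control skin. Both fold changes were near 0 (0.02 ± 0.14 and -0.01 ± 0.16, log2 ± SE, edgeR adjusted p 0.949 and 0.976), and their sign turned under other scalings.

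Idi1, the isomerase that makes the reactive isoprenoid unit, showed the cKO libraries on either side of control: 287 and 153 CPM in cKO replicates 2 and 3, against 227 and 194 CPM in control replicates 2 and 3. The resulting difference was 0.06 ± 0.34 (log2 fold change ± SE, edgeR adjusted p = 0.942). Without cKO replicate 2 it was -0.47 and without cKO replicate 3 it was 0.46, neither called. Idi1 has a copy of 100% identity over 684 bases, Gm13502, with 92 and 44 counts in the cKO libraries and 99 and 76 in the control libraries. Fdps, which joins isoprenoid units into farnesyl diphosphate, had the lowest FPKM of the 26 genes in both groups, at 1.60 ± 0.09 in cKO skin and 1.57 ± 0.19 in control skin (SD, n = 2 each). For Fdps 5 near-identical copies are annotated. The 4 with a row held 0 to 4 counts each per library, beside 102 to 160 counts for Fdps, and Gm7979 was not analysed here. Whether reads shared with copies affect the level of Fdps was not tested, so that level is uncertain. Ggps1, which makes the longer geranylgeranyl diphosphate used to anchor small GTPases, had 26.98 and 22.86 CPM in cKO skin, against 19.65 and 22.73 CPM in control skin. The nearest libraries of the 2 groups almost met, and the log2 fold change was 0.23 ± 0.19 (SE), edgeR adjusted p 0.566.

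The 12 enzymes of the squalene and sterol ring steps had a median log2 fold change of -0.33, the lowest of the 3 roles with several genes. Both cKO libraries were below both control libraries for 6 of them (Lss, Cyp51, Tm7sf2, Msmo1, Hsd17b7 and Dhcr7) and above for 2 (Ebp and Sc5d). The shares over all tested genes were 27.7% below and 25.1% above. The entry steps lay close to control. Fdft1, squalene synthase, had 89.4 and 72.2 CPM in cKO skin, against 95.2 and 85.5 CPM in control skin, and overlaps Ctsb on the other strand (20214 and 18562 counts in cKO skin, 15951 and 16154 in control skin). Sqle, squalene epoxidase and a control point of the route, had 185 and 142 CPM in cKO skin, against 155 and 141 CPM in control skin. The groups overlapped for Fdft1, and for Sqle cKO replicate 3 lay within the control range. Their log2 fold changes were -0.16 ± 0.16 and 0.14 ± 0.18 (SE), with edgeR adjusted p of 0.655 and 0.73. Lss, which folds the epoxide into lanosterol, had 98.4 and 80.2 CPM in cKO skin, against 141 and 127 CPM in control skin. Both cKO libraries were below both control libraries, and the log2 fold change was -0.58 ± 0.16 (SE, edgeR unadjusted p = 0.0185, adjusted p = 0.155).

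Removal of methyl groups from lanosterol begins with Cyp51, the lanosterol demethylase. Cyp51 had 250 and 156 CPM in cKO skin, against 311 and 282 CPM in control skin, with a log2 fold change of -0.55 ± 0.27 (SE, edgeR adjusted p = 0.349). Akap9 overlaps it on the other strand and had 1827 and 2026 counts in cKO skin, against 3432 and 3105 in control skin. Tm7sf2 and Lbr encode reductases of the same double bond, Lbr also being a protein of the inner nuclear membrane. Tm7sf2 had 16.4 and 14.2 CPM in cKO skin, against 22.1 and 21.3 CPM in control skin, and shares its strand and part of its span with Vps51 (473 and 487 counts in cKO skin, 927 and 746 in control skin). Lbr had 71.6 and 47.6 CPM in cKO skin, against 50.5 and 40.4 CPM in control skin. The groups were apart for Tm7sf2, at -0.51 ± 0.18 (log2 ± SE, edgeR adjusted p = 0.237), and overlapped for Lbr, at 0.39 ± 0.26 (adjusted p = 0.475). A test of the difference between the 2 genes was not run.

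Msmo1, Nsdhl and Hsd17b7 act together on the next methyl groups, as oxygenase, decarboxylating dehydrogenase and keto reductase, and their levels differed. Msmo1 had 247 and 110 CPM in cKO replicates 2 and 3, against 386 and 370 CPM in control replicates 2 and 3. The control libraries were nearly level, whereas cKO replicate 2 had 2.25 times the level of cKO replicate 3. The log2 fold change of Msmo1 was -1.08 ± 0.41 (SE, edgeR adjusted p = 0.256), -1.78 without cKO replicate 2 and -0.61 without cKO replicate 3. Nsdhl had 41.0 and 32.7 CPM in cKO skin, against 41.7 and 40.6 CPM in control skin, and the groups overlapped (-0.16 ± 0.17, log2 fold change ± SE, edgeR adjusted p = 0.678).

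Hsd17b7 had 115 and 114 CPM in the cKO libraries, against 234 and 215 CPM in the control libraries. The cKO libraries were level with each other and far below both controls. The log2 fold change of Hsd17b7 was -0.97 ± 0.13 (SE), with an edgeR unadjusted p of 0.00116, the smallest of the members, and an adjusted p of 0.0569. Per length it had 21.8 ± 0.66 FPKM in cKO skin and 44.9 ± 3.06 FPKM in control skin (SD, n = 2 each). Ebp and Sc5d, the isomerase and the desaturase that shift and add ring double bonds, stood on the other side. Ebp had 56.6 and 51.6 CPM in cKO skin, against 43.6 and 43.1 CPM in control skin. Sc5d had 48.6 and 47.3 CPM in cKO skin, against 38.9 and 40.7 CPM in control skin. Both cKO libraries were above both controls for each gene, with log2 fold changes of 0.32 ± 0.13 and 0.27 ± 0.13 (SE) and edgeR adjusted p of 0.291 and 0.349.

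Dhcr7, the reductase that makes cholesterol from its last precursor, the sterol from which vitamin D is also made in skin, had 97.4 and 76.3 CPM in cKO skin, against 186 and 167 CPM in control skin. Every cKO library was below every control library, and the 2 groups were separated by a wide gap. The log2 fold change was -1.02 ± 0.18 (SE), with an edgeR unadjusted p of 0.0031 and an adjusted p of 0.0778. The promoter windows of Hsd17b7 (chr1:169969156-169969455, minus strand) and of the most downstream listed of 3 Dhcr7 starts (chr7:143829964-143830263, plus strand) are shown because these genes had the smallest p of the enzymes. Sequences are from RefSeq, GRCm38.p6, read 5′ to 3′ along the gene. Capitals mark CCAAT matches, on either strand, and the E-box CACGTG, which lies 143 bases upstream of the Hsd17b7 start.
Hsd17b7: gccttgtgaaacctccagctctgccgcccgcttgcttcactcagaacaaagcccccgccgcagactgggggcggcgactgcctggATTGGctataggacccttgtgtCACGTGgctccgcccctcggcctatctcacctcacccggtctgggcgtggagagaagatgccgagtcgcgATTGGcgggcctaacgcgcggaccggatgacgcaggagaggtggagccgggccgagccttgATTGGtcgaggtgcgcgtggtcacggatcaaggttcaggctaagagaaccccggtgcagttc
Dhcr7: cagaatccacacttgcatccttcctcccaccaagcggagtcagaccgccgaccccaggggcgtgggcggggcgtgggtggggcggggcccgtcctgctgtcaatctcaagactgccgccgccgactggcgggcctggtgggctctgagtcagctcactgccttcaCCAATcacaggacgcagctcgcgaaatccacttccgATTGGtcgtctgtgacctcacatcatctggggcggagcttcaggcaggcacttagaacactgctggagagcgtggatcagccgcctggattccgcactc

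The 5 genes of SREBP sensing had a median log2 fold change of -0.13. Of them 3 were lower in both cKO libraries (Scap, Insig1 and Insig2), beside 27.7% of all tested genes. The transcription factor genes overlapped between the groups. Srebf2, the factor of cholesterol synthesis, had 207 CPM in both cKO libraries, against 211 and 194 CPM in control skin, a log2 fold change of 0.04 ± 0.14 (SE, edgeR adjusted p = 0.921) whose sign turned with library size scaling. Srebf1, whose products favour fatty acid genes, had 136 and 167 CPM in cKO skin, against 160 and 163 CPM in control skin (-0.09 ± 0.16, log2 fold change ± SE, edgeR adjusted p = 0.808). These are transcript levels, and the cleavage that activates SREBP proteins was not measured. Scap had 116 and 115 CPM in cKO skin, against 132 and 122 CPM in control skin, a difference of -0.13 ± 0.13 (log2 ± SE, edgeR adjusted p = 0.634).

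The INSIG genes encode the sterol-dependent brake on SCAP. Insig1, itself an SREBP target, had 80.2 and 64.6 CPM in cKO skin, against 94.5 and 91.8 CPM in control skin, with a log2 fold change of -0.36 ± 0.16 (SE, edgeR adjusted p = 0.304). Insig2 had 89.5 and 57.0 CPM in cKO replicates 2 and 3, against 163 and 172 CPM in control replicates 2 and 3. Both cKO libraries were far below the controls, with cKO replicate 3 the lowest. The log2 fold change of Insig2 was the most negative of the 26 genes, -1.19 ± 0.25 (SE), with an edgeR unadjusted p of 0.00661 and an adjusted p of 0.10. Without cKO replicate 2 it was -1.56 and without cKO replicate 3 it was -0.90. Without control replicate 2 it was -1.231 and without control replicate 3 it was -1.145. The window of the first of 3 listed Insig2 starts (RefSeq, GRCm38.p6, chr1:121332540-121332839, minus strand) is shown because Insig2 was the furthest below control and this is the start whose window holds CCAAT, in capitals on either strand.
Insig2: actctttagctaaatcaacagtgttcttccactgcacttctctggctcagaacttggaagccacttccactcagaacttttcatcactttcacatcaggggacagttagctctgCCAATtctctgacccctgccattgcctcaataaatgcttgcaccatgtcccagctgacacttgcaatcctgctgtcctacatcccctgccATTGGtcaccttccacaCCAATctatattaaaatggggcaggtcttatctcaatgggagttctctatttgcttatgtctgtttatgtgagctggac

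Stard4, a soluble protein that carries cholesterol between membranes, had 88.3 and 81.2 CPM in cKO skin, against 59.6 and 57.7 CPM in control skin. Both cKO libraries were above both controls, and the libraries within each group were close. The fold change of Stard4 was 0.53 ± 0.13 on the log2 scale (SE), with an edgeR unadjusted p of 0.0107 and an adjusted p of 0.12.

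The members also shared a difference between libraries of the same group. Replicate 2 was above replicate 3 for 24 of the 26 genes in cKO skin and for 19 in control skin, beside 52.2% and 49.9% of all tested genes in cKO and control skin. The ratio of cKO replicate 2 to cKO replicate 3 ran between 0.81 and 2.25 and was over 1.5 for Msmo1, Idi1, Cyp51 and Insig2, whereas the control ratio ran between 0.83 and 1.25. The 12 sebocyte markers summed to 2375 and 685 CPM in cKO replicates 2 and 3, against 4304 and 4080 CPM in control replicates 2 and 3, and none was at 0. All 11 that passed the filter had negative fold changes (median -1.81), beside 16 of the 26 members, and Scd3, a desaturase of the sebaceous gland, passed the test, at 7.32 and 2.86 CPM in cKO skin, against 165 and 136 CPM in control skin. The summed sebocyte level differed 3.47-fold between the cKO libraries and 1.05-fold between the control libraries. Krt79 held the largest part of the cKO sums, at 1616 and 422 CPM in cKO replicates 2 and 3. In cKO skin replicate 2 was above replicate 3 for 10 of the 11 tested sebocyte markers. The exception was Plin5, at 0.95 and 5.79 CPM in cKO replicates 2 and 3. The cKO ratio was 1.01 for Hsd17b7 and Scap, 1.0 for Srebf2, 1.03 for Sc5d and 1.05 for Mvk, and was below 1 for Fdps (0.89) and Srebf1 (0.81). Other marker lists split in both groups: the replicate 2 over 3 ratio of the summed level was 3.26 in cKO skin and 6.17 in control skin for hair follicle markers, and 7.86 in cKO skin and 4.32 in control skin for melanocyte markers. Cycling cell markers, at 851 and 372 CPM in cKO skin and 577 and 317 CPM in control skin, also differed between the replicates. The part of any of these cell types in the levels of the members was not tested.

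**Figure D3:**
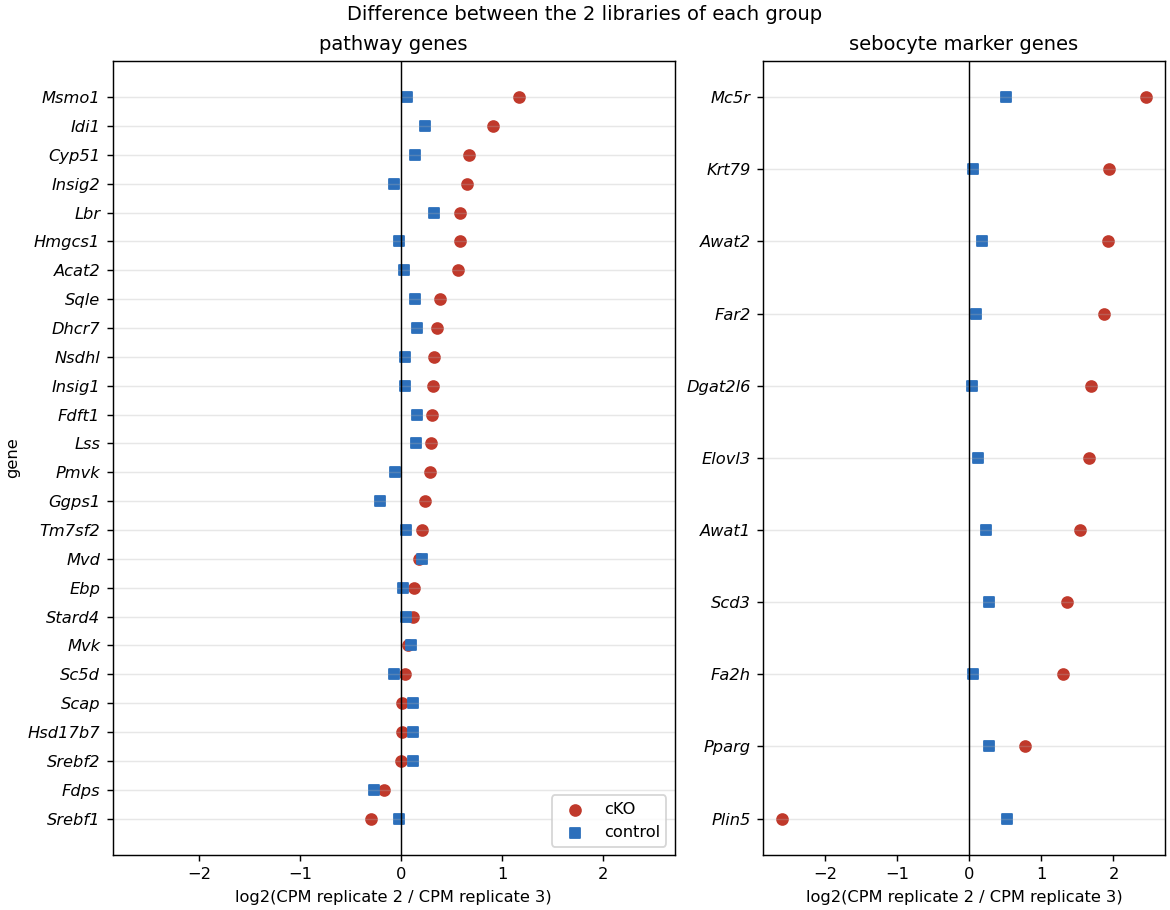
Log2 ratio of CPM in replicate 2 over replicate 3 for the 26 genes (left) and for the 11 tested sebocyte markers (right), with cKO as red circles and control as blue squares. The cKO ratio is above 0 for 24 of 26 genes, highest for Msmo1 at 2.25-fold, while control ratios stay between 0.83-fold and 1.25-fold.

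Promoter windows were in the RefSeq table for 22 of the 26 genes, as 30 windows in all (not for Fdft1, Sqle, Fdps and Stard4). SREBPs bind sterol elements together with NF-Y or Sp1 at neighbouring sites, so 4 motifs were searched on both strands: the sterol element TCACNCCAC, the NF-Y box CCAAT, the Sp1 box GGGCGG and the E-box CACGTG. The box CCAAT was in a window of 20 of the 22 genes (all but Acat2 and Scap), beside 41.76% of the 12119 tested genes with a window. GGGCGG was also in 20 of 22 (all but Pmvk and Ggps1), beside 63.49% of tested genes. The sterol element, in this spelling, was in 1 of 22, beside 1.49% of tested genes, and CACGTG in 5 of 22 (Hsd17b7, Sc5d, Dhcr7, Scap and Insig1), beside 10.92%. Over all 32851 windows of this length in the table, the shares were 37.41% for CCAAT, 35.66% for GGGCGG, 1.24% for the sterol element and 7.15% for CACGTG. No matches of different motifs overlapped in the windows of these genes. With CCAAT in 20 of the 22 genes, its presence could not separate genes that were lower in cKO skin from those level or higher. For Dhcr7 it was only in the window of start 3, and for Insig2 only in that of start 1. Which start is used in skin was not measured. A match is a description of letters and not a binding site.

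**Figure D4:**
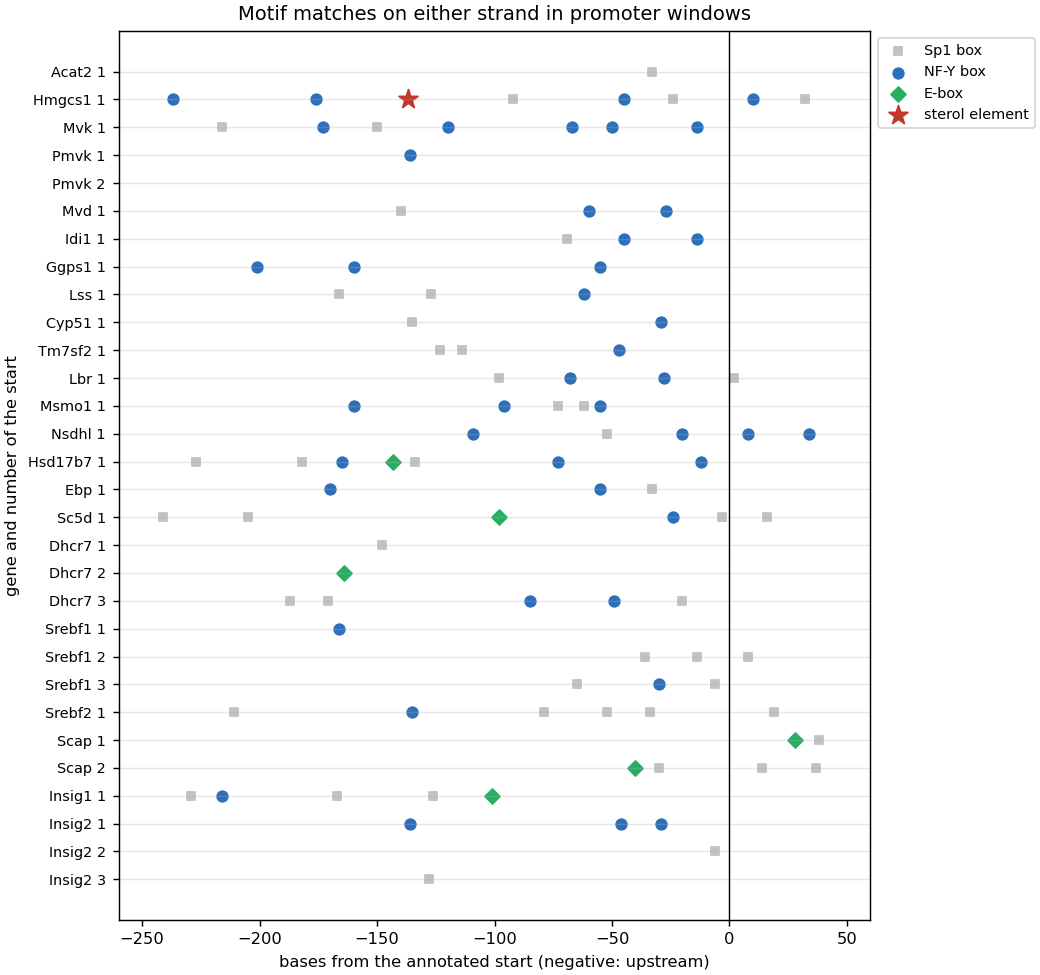
Positions of motif matches, on either strand, in bases from the annotated start (negative is upstream) in 30 windows of 22 genes, with NF-Y boxes as blue circles, Sp1 boxes as grey squares, E-boxes as green diamonds and the sterol element as a red star. CCAAT is in 21 of the 30 windows, and the only sterol element lies 137 bases upstream of the Hmgcs1 start.

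The surrounding pathway was described from 7 further lists. Their counts stand beside 0.35% of all tested genes called lower, 0.74% called higher, 27.7% lower in both cKO libraries and 25.1% higher in both. Of 8 other sterol enzymes and their electron donors, 0 passed the test, all 8 had negative fold changes, and 5 were lower in both cKO libraries, with a median of -0.21. Pgrmc1, a haem protein that partners Cyp51, had -0.61 ± 0.16, and Por, the electron donor of Cyp51 and Sqle, -0.25 ± 0.15 (log2 ± SE, edgeR adjusted p 0.132 and 0.426).

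Of 12 genes of SREBP processing and sterol-regulated degradation, 0 passed, 3 were higher and 2 lower in both cKO libraries (25.1% and 27.7% of all genes), and the median was -0.05; the higher count is at the level of all genes. The leading ones were Sec23a, a coat protein of the vesicles that carry SCAP, at 0.37 ± 0.12, Rnf145, a sterol-responsive ubiquitin ligase, at 0.33 ± 0.14, and Mbtps2, the second SREBP protease, at 0.27 ± 0.16 (log2 ± SE, edgeR adjusted p 0.204, 0.282 and 0.42). Of 17 genes of sterol uptake and transport, 0 passed, 8 were higher and 2 lower in both cKO libraries, with a median of 0.11. Lipa, the lysosomal lipase that frees cholesterol from its esters, had 39.6 and 52.6 CPM in cKO skin, against 22.1 and 25.5 CPM in control skin (0.96 ± 0.21, log2 ± SE, edgeR adjusted p = 0.104).

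Of 11 genes of LXR and sterol efflux, 0 passed, 5 were lower and 2 higher in both cKO libraries, with a median of -0.08. Lpcat3, a phospholipid enzyme and LXR target, had 90.2 and 51.0 CPM in cKO skin, against 199 and 192 CPM in control skin, at -1.47 ± 0.30 (log2 ± SE, edgeR adjusted p = 0.0971). The receptor genes Rxra and Nr1h2 had -0.53 ± 0.14 and -0.32 ± 0.12 (log2 ± SE, edgeR adjusted p 0.144 and 0.249). Of 10 listed enzymes of oxysterols, sterol esters and sterol sulfates, 8 were tested and 0 passed, with 4 higher and 4 lower in both cKO libraries and a median of -0.005. Cyp7b1, an oxysterol hydroxylase, had 1.76 ± 0.27 and Cyp27a1, which makes oxysterols in mitochondria, -1.44 ± 0.24 (log2 ± SE, edgeR adjusted p 0.0631 and 0.0733). Soat2, a sterol acyltransferase, had 34 and 66 counts in cKO skin, against 12 and 12 counts in control skin, with a log2 fold change of 2.56 ± 0.48 (SE, edgeR adjusted p = 0.0845).

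The SREBP-1 fatty acid targets held the 2 list genes that passed. Of 16 genes, 2 passed the test downward and 0 upward, while 13 had negative and 3 positive fold changes. In both cKO libraries 9 were lower and 3 higher (27.7% and 25.1% of all genes), and the median was -0.76. Over all tested genes, 0.35% were called lower. Acacb, the acetyl-CoA carboxylase of the mitochondrial surface, fell to 92.3 and 117 CPM in cKO skin, against 400 and 414 CPM in control skin, at -1.96 ± 0.19 (log2 ± SE, edgeR adjusted p = 0.0429). Acss2, which makes acetyl-CoA from acetate, fell to 26.2 and 28.1 CPM in cKO skin, against 71.1 and 77.5 CPM in control skin, at -1.45 ± 0.14 (log2 ± SE, edgeR adjusted p = 0.0435). Gpam, the first enzyme of glycerolipid synthesis, had -1.12 ± 0.15 (log2 ± SE, edgeR adjusted p = 0.0547). The 3 genes with positive fold changes were Scd2 at 1.65 ± 0.23, Fads2 at 1.41 ± 0.32 and Fads1 at 0.75 ± 0.19 (log2 ± SE, edgeR adjusted p 0.0586, 0.112 and 0.136). Scd2 had 569 and 535 CPM in cKO skin, against 207 and 146 CPM in control skin. Adipocytes also express Acacb and Gpam, and adipocyte markers summed to 679 and 685 CPM in cKO skin and to 945 and 1465 CPM in control skin, with none at 0. The ratio of summed markers, cKO over control, was 0.566 for adipocytes, 0.365 for sebocytes and 0.636 for muscle. The groups overlapped for all 8 muscle markers. The part of any of these cell types in these values was not tested. Of 15 genes of the non-sterol isoprenoid branch, 0 passed, 7 were lower and 4 higher in both cKO libraries (27.7% and 25.1% of all genes), with a median of -0.17; the higher count is near the level of all genes. Nus1, a subunit of the enzyme that makes the dolichol precursor, had 0.72 ± 0.14, Coq2 of ubiquinone synthesis -0.55 ± 0.12 and Zmpste24, a protease of prenylated proteins, 0.42 ± 0.13 (log2 ± SE, edgeR adjusted p 0.0896, 0.11 and 0.174).

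**Figure D5:**
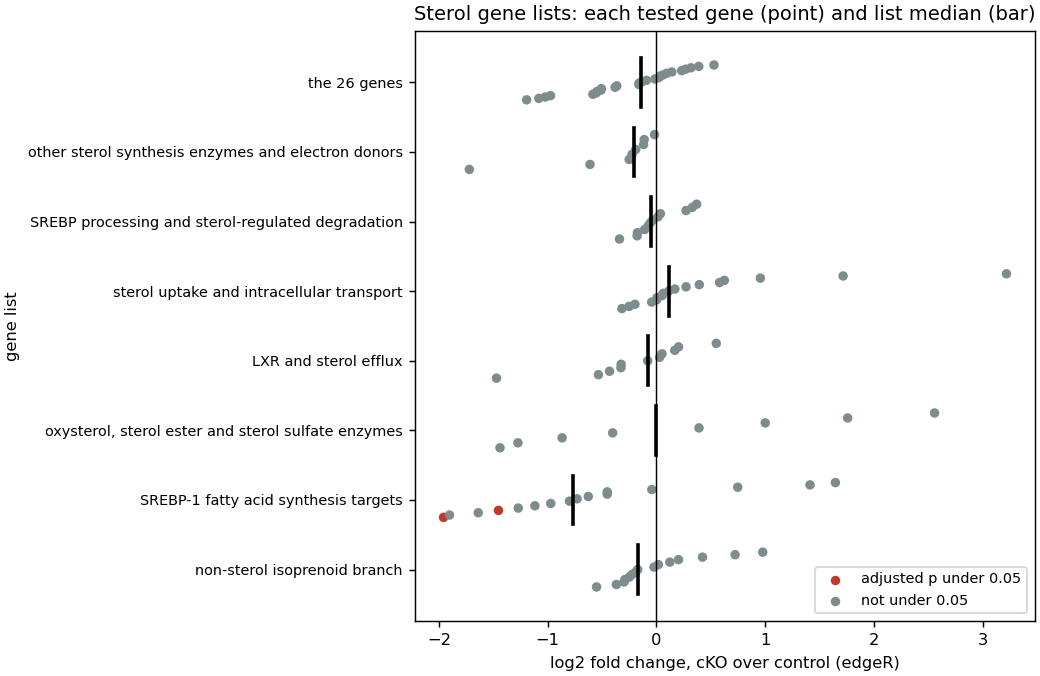
Log2 fold change of cKO over control for every tested gene (point) and its list median (bar) in the 26 genes and in 7 further lists, with genes under an adjusted p of 0.05 in red. The red points are Acacb and Acss2 in the SREBP-1 fatty acid list, whose median of -0.76 is the lowest, while the median of the uptake list is 0.11.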

How the data were processed

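Poly(A) RNA of whole skin was sequenced in 4 libraries. Titles gave groups and replicate numbers, and the Ctr columns were taken as the floxed libraries, no other group being left. Gene counts are the authors' expected counts (RSEM, per the submitters' processing notes), deposited as whole numbers. FPKM values per library are also the authors', per the file headers, and served to compare genes and in an alternative test. Each gene's log2 fold change, p-value and false discovery rate in the deposited table are the authors' own, edgeR being among the tools listed in the submitters' processing notes. Those notes name the build mm8, whereas 98.9% of identifiers match GENCODE M21 of GRCm38, so no coordinates were taken from the files, and M21 served for copies and overlaps. Aligner, annotation release and strandedness were not given in the sources used here, so reads of overlapping genes and of near-identical copies (at least 95% identity over 200 bases) cannot be told apart.

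Counts were filtered with filterByExpr, scaled by TMM and tested in edgeR 4.0.16 (glmQLFit, glmQLFTest, R 4.3.3, limma 3.58.1) over the whole table, cKO against control, two-sided, with no covariate and Benjamini-Hochberg adjustment at 0.05. SE is the absolute unshrunk log2 fold change over the square root of F. Chi-square per gene between the libraries of a group was 93.6 in cKO and 24.2 in control, above sampling noise, and the biological coefficient of variation was 0.284. The scripts were tested on simulated data, 3 runs with 200 of 17440 genes changed. DESeq2 1.42.0, edgeR's exact test, limma voom, limma on log2 FPKM, other scalings, no filter, a replicate block and leaving out each library were alternatives.

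The members, lists and tests were chosen with earlier results of these data known. Every member could be named, with the 3 genes of smallest unadjusted p and any called gene of each further list, and Ppp6c. Of marker lists, genes at 0 or called could be named. Outside this rule, Krt79, Plin5, Scd2, Fads1 and Fads2 were named to show the make-up of their lists. Some genes that this rule takes are not reported here. Erg28 was matched through its synonym, no row was matched to Sts, and Hsd3b7 did not pass the filter. Empty lines (4) were not analysed here.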

Additional observations from a re-analysis of the deposited data

How the results depend on the processing

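Members called lower numbered 0 in the quasi-likelihood test, with median-of-ratios factors, with library size alone, in limma voom and on log2(FPKM + 0.1). They numbered 2 with no filter, 3 in DESeq2 and in edgeR's exact test, 1 on log2(FPKM + 1), and 0 to 6 when single libraries were left out. Over all genes, the 190 calls became 1886 in DESeq2, 1811 in the exact test, 883 with no filter, 1177 with the replicate block, 1664 without cKO replicate 2, 986 without cKO replicate 3 and 0 without either control library. No paired design is given by the labels; samples of the same number deviated together with a correlation of 0.41 over genes, with only 2 pairs. With the replicate block 2 members were called lower, Dhcr7 and Hsd17b7, where 2.64% of all tested genes were. The median of the members lay between -0.33 and -0.06 when single libraries were left out.

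Of 338 member values under 13 alternatives, 297 kept direction and side of the threshold, 19 passed it newly and 22 turned sign; 18 members kept one direction throughout, 13 lower and 5 higher. Sign turned for members near 0: Mvk (-0.044 with library size alone, -0.042 and -0.044 on FPKM), Pmvk (0.00586 with median-of-ratios factors, 0.00582 in DESeq2), Idi1 (-0.067 and -0.069 on FPKM, -0.00201 with the replicate block) and Srebf2 (-0.032 with library size alone, -0.030 and -0.031 on FPKM). Leaving out single libraries gave -0.016 to 0.071 for Mvk, -0.165 to 0.131 for Pmvk, -0.465 to 0.455 for Idi1, -0.037 to 0.246 for Fdps, -0.064 to 0.328 for Sqle, -0.332 to 0.00342 for Nsdhl, -0.243 to 0.051 for Srebf1 and -0.01 to 0.092 for Srebf2. The cause was not tested. In the simulation, with 2 libraries per group, changes of 2-fold were mostly below what the test could call.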
